A study of Mus musculus with 4 samples.

Results

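Classical cadherins and catenins were examined in 10 genes of the mouse embryonic cortex, out of 23240 rows of a gene count table. The members were chosen by symbol: the type I cadherin genes Cdh2 and Cdh4, the type II cadherin genes Cdh6, Cdh8, Cdh10 and Cdh11, the atypical cadherin gene Cdh13, the alpha-catenin genes Ctnna1 and Ctnna2, and the beta-catenin gene Ctnnb1. Each symbol stood on a single row, and all 10 passed the filter on low counts. The study compared neural progenitor cells (NPCs) with their daughter neurons by RNA-seq, with 2 libraries per group. All libraries came from cortices at embryonic day 15.5, from double-positive embryos of a cross between heterozygous Nestin-GFP and homozygous DCX-mRFP mice, so both groups carried both reporters. NPCs were sorted by green fluorescence and neurons by both colours, so a group is defined by reporter fluorescence and not by cell shape or position. How many embryos went into a library is not given in the sources used here, and the p-values measure only the spread between duplicate libraries, which may be technical.

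Classical cadherins are transmembrane proteins that bind the same or related cadherins on a neighbouring cell. Beta-catenin binds the cadherin tail inside the cell, alpha-catenin binds beta-catenin, and alpha-catenin connects the complex to actin. In the developing cortex such adherens junctions hold radial glia together at the ventricular surface, and cadherins also act in the migration of neurons along radial glial fibres. Beta-catenin has a separate role in the nucleus, where it carries the Wnt signal together with TCF and LEF factors. Cdh13 is the exception among the cadherins named here, because it is anchored by a lipid (GPI) and has no tail for catenins to bind.

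Library totals were 52611828 to 55615142 counts. Radial glia markers were higher in NPCs for 8 of 8 genes, with a summed level of 2998.7 to 3013.0 CPM (CPM is the count scaled to a common library total) in NPCs and 610 to 624 CPM in neurons. Neuron markers were higher in neurons for 7 of 8 genes, with sums of 9812.2 to 9907.6 CPM in neurons and 2552.4 to 2558.9 CPM in NPCs. Intermediate progenitor markers were higher in NPCs for 5 of 5 genes, with sums of 2456.1 to 2462.9 CPM in NPCs and 504 to 506 CPM in neurons. Markers of cells other than these progenitors and neurons moved as well. Erythroid markers, the list of other cells with the highest sum, were higher in NPCs for 4 of 4 genes tested, with sums of 1152.8 and 949 CPM in NPCs and 159 and 156 CPM in neurons. Microglia markers (7 of 7 higher in NPCs) summed to 43.2 to 43.3 CPM in NPCs and 20.2 to 20.7 CPM in neurons. Endothelial markers (8 of 8 higher in NPCs) summed to 207 to 214 CPM in NPCs and 7.04 to 7.30 CPM in neurons, mural cell markers (5 of 5 tested) to 170 to 179 and 8.91 to 9.34 CPM, and oligodendrocyte precursor markers (6 of 6) to 181 to 186 and 2.97 to 3.86 CPM. None of these markers was at 0 in both libraries of a group.

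All 10 genes differed between the groups, where 72.6% of the 15292 genes tested did. In neurons 7 were higher (35.8% of all genes tested were), namely Cdh2, Cdh4, Cdh8, Cdh10, Cdh11, Cdh13 and Ctnna2. In NPCs 3 were higher (36.9% of all genes tested were), namely Cdh6, Ctnna1 and Ctnnb1. The 2 groups did not overlap in TMM-scaled CPM for any of the 10, as for 86.0% of all genes tested. The difference was at least 2-fold for 5 of the 10, beside 29.9% of all genes, and for 3 when scaled by library size only. The median log2 change of the 10 (neurons over NPCs) was 0.40, beside -0.02 for all genes tested. Each p is from the quasi-likelihood test of edgeR, adjusted over all genes tested by the Benjamini-Hochberg method, and log2 changes are given ± standard error.

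**Figure D1:**
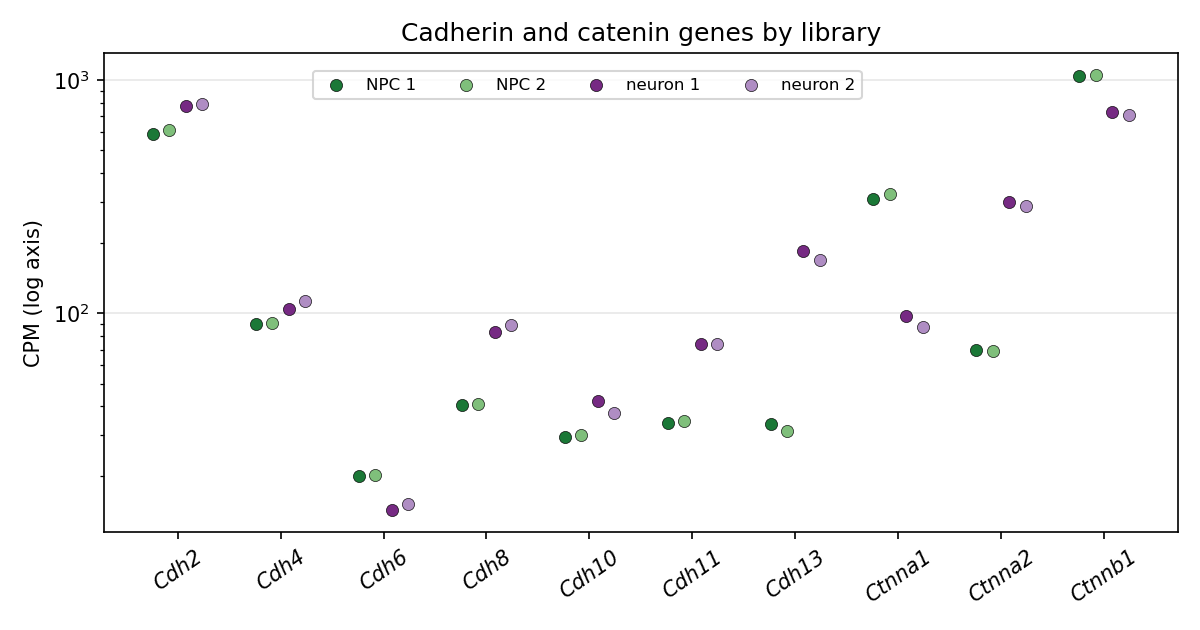
Level of each gene in CPM (logarithmic axis) in each of the 4 libraries, 1 point per library. The libraries of a group lie close together for every gene, and Ctnna1 and Ctnna2 change places between NPCs (311 and 324 against 69.4 and 69.1 CPM) and neurons (97.2 and 87.6 against 302 and 290 CPM).

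The alpha-catenin genes changed in opposite directions. Ctnna2, which encodes the neuronal form (alpha-N-catenin), was at 69.4 and 69.1 CPM in the NPC libraries and at 302 and 290 CPM in the neuron libraries. Both neuron libraries were thus far above both NPC libraries, a 4.28-fold rise (log2 change 2.10 ± 0.06, edgeR adjusted p = 6.4e-15). Ctnna1, which encodes the widely expressed epithelial form (alpha-E-catenin), was at 311 and 324 CPM in NPCs and at 97.2 and 87.6 CPM in neurons. It was 3.44-fold higher in NPCs (log2 change -1.78 ± 0.06, edgeR adjusted p = 1.2e-13). Of all genes tested, 88.5% had a smaller absolute change than Ctnna2 and 84.4% a smaller one than Ctnna1. The fall of Ctnna1 ran alongside lower endothelial, mural and oligodendrocyte precursor markers, whose part in it was not tested. In sorted bulk samples, fewer cells of a type and less RNA per cell cannot be told apart.

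Within a library, the ratio of the paralogs does not depend on the scaling between libraries. Ctnna2 had 0.223 and 0.213 counts per Ctnna1 count in NPCs and 3.11 and 3.31 in neurons. On the log2 scale the ratio was -2.20 ± 0.05 (SD, n = 2) in NPCs and 1.68 ± 0.06 in neurons, a difference of 3.88. The groups did not overlap, and the exact permutation test gave p = 0.333 (two-sided), the smallest that 2 against 2 libraries allow. Per kb of annotated exon, which allows levels of different genes to be compared, Ctnna2 made up 11.8% and 11.3% of the alpha-catenin level in NPCs and 65.1% and 66.5% in neurons. The sum of both genes was 94.4 and 97.9 CPM per kb in NPCs and 74.5 and 70.0 in neurons. That sum depended on the gene length used: with the longest transcript in place of all exons (chosen after seeing the data), the group means were 102 in NPCs and 95.9 in neurons.

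Sequence upstream of the start of Ctnna2 is shown with that of Ctnnb1, a pair that moved in opposite directions. Promoter windows were matched for 5 of the 10 genes, and both printed stretches are from RefSeq on GRCm38.p6, cut back to the part outside annotated exons. Windows began 250 bases before the start. The Ctnna2 stretch is the first 102 bases of its window, the end farthest from the start. The Ctnnb1 stretch is the first 250 bases of its window, up to the start. For Ctnna2 this is chr6:77979816-77979917 on the minus strand (102 bases), with the match to CACCTG in capitals. For Ctnnb1 it is chr9:120933150-120933399 on the plus strand (250 bases), with matches to CCGCCC, the reverse complement of GGGCGG, in capitals.
Ctnna2: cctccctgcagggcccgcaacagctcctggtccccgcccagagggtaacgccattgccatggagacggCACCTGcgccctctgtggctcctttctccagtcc
Ctnnb1: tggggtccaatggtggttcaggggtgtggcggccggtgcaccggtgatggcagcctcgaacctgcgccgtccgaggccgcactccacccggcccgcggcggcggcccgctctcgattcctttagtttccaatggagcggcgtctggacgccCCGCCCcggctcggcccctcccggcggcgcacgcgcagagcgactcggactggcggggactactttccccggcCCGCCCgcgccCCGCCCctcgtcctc
CACCTG, searched on both strands, is a form of the E-box CANNTG that Zeb, Snail and Scratch factors are known to bind. It occurred once in the Ctnna2 stretch, overlapping a CANNTG match by construction, and 7.46% of 32851 promoter windows held it in the 102 bases at the same distance from the start. No CANNTG match was found in the Ctnnb1 stretch, where 66.2% of 250-base windows held one. GGGCGG, known as the GC box, was matched 3 times before Ctnnb1 and once before Ctnna2, and 32.7% of 250-base windows and 10.7% of 102-base windows held it. The TCF/LEF core CTTTGA was in neither stretch, and 13.8% of 250-base windows and 6.39% of 102-base windows held it. GC content was 67.6% before Ctnna2 and 74.8% before Ctnnb1. The stretches differ in length and in distance from the start, so their GC content and match counts are not like for like. A match describes letters only, and binding was not measured.

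Ctnnb1, the link between cadherins and alpha-catenin and the effector of canonical Wnt signals, had the highest level per kb of the 10 genes in every library. It was at 1045.4 and 1055.3 CPM in NPCs and at 728 and 707 CPM in neurons. The level was 1.46-fold higher in NPCs (log2 change -0.55 ± 0.05, edgeR adjusted p = 8.9e-08), and the duplicates lay much closer together than the groups. For each CPM per kb of Ctnna1 and Ctnna2 together there were 3.06 and 2.97 of Ctnnb1 in NPCs and 2.70 and 2.79 in neurons. This ratio depended on the gene length used, with group means of 2.85 in NPCs and 2.06 in neurons for the longest transcript. For each CPM per kb of the 6 cadherins that have a catenin-binding tail there were 1.87 and 1.83 of Ctnnb1 in NPCs and 0.957 and 0.910 in neurons (exact permutation p = 0.333, two-sided, the smallest possible). Relative to these cadherin genes, the Ctnnb1 level in neurons was thus 0.504 of that in NPCs.

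The type I cadherins were modestly higher in neurons. Cdh2 (N-cadherin), the main cadherin of neural tissue, was at 587 and 609 CPM in NPCs and at 774 and 792 CPM in neurons. This was a 1.31-fold rise (log2 change 0.39 ± 0.05, edgeR adjusted p = 6.0e-06). Cdh4 (R-cadherin), the closest relative of Cdh2 among the members, was at 89.7 and 91.4 CPM in NPCs and at 105 and 113 CPM in neurons (log2 change 0.26 ± 0.06, edgeR adjusted p = 5.2e-04). Scaling by library size only shifted the median of all genes tested from -0.02 to -0.23. Under it Cdh2 was at 0.18 and still passed. Cdh4 was then at 0.06 and did not pass (edgeR adjusted p = 0.367).

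Type II cadherins, whose expression marks areas and layers of the cortex, went both ways. Cdh11 was at 33.9 and 34.7 CPM in NPCs and at 74.3 CPM in both neuron libraries, a 2.16-fold rise (log2 change 1.11 ± 0.06, edgeR adjusted p = 3.8e-11). Cdh8 was at 40.4 and 41.1 CPM in NPCs and at 82.9 and 89.5 CPM in neurons (log2 change 1.08 ± 0.06, edgeR adjusted p = 7.9e-11). Every neuron library was above every NPC library for both genes. The rise of at least 2-fold depended on the scaling, since Cdh11 was at 0.91 and Cdh8 at 0.87 with library size only, and Cdh8 at 0.98 with upper-quartile factors. Cdh10 rose less, from 29.6 and 30.1 to 42.1 and 37.4 CPM (log2 change 0.41 ± 0.07, edgeR adjusted p = 7.8e-05). Cdh6 was the 1 cadherin of the members that was higher in NPCs. It was at 20.0 and 20.3 CPM in NPCs and at 14.3 and 15.2 CPM in neurons (log2 change -0.45 ± 0.08, edgeR adjusted p = 1.4e-04). Cdh6 also had the lowest level per kb of the 10 genes in both groups, at 2.47 ± 0.02 and 1.81 ± 0.08 CPM per kb (SD, n = 2).

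The GPI-anchored Cdh13 (T-cadherin), which lacks the catenin-binding tail, had the largest change of the 10. It was at 33.6 and 31.2 CPM in NPCs and at 185 and 169 CPM in neurons, a 5.46-fold rise (log2 change 2.45 ± 0.07, edgeR adjusted p = 6.9e-15). Of all genes tested, 92.1% had a smaller absolute change. Cdh13 is also known from blood vessels. Endothelial markers summed to 207 to 214 CPM in NPCs and 7.04 to 7.30 CPM in neurons, and the part of vessel cells in the Cdh13 level was not tested. Markers of Cajal-Retzius cells, early neurons of the cortical surface, were higher in neurons for 3 of 3 genes tested. They summed to 38.7 to 38.8 CPM in NPCs and 151 to 154 CPM in neurons, and their part in the rise of Cdh8, Cdh11, Cdh13 and Ctnna2 was not tested. Interneuron lineage markers summed to 177 to 181 CPM in NPCs and 169 to 183 CPM in neurons, with 2 of 6 genes higher in neurons (Gad1, log2 change 0.75, and Gad2, 0.45) and 2 higher in NPCs.

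**Figure D2:**
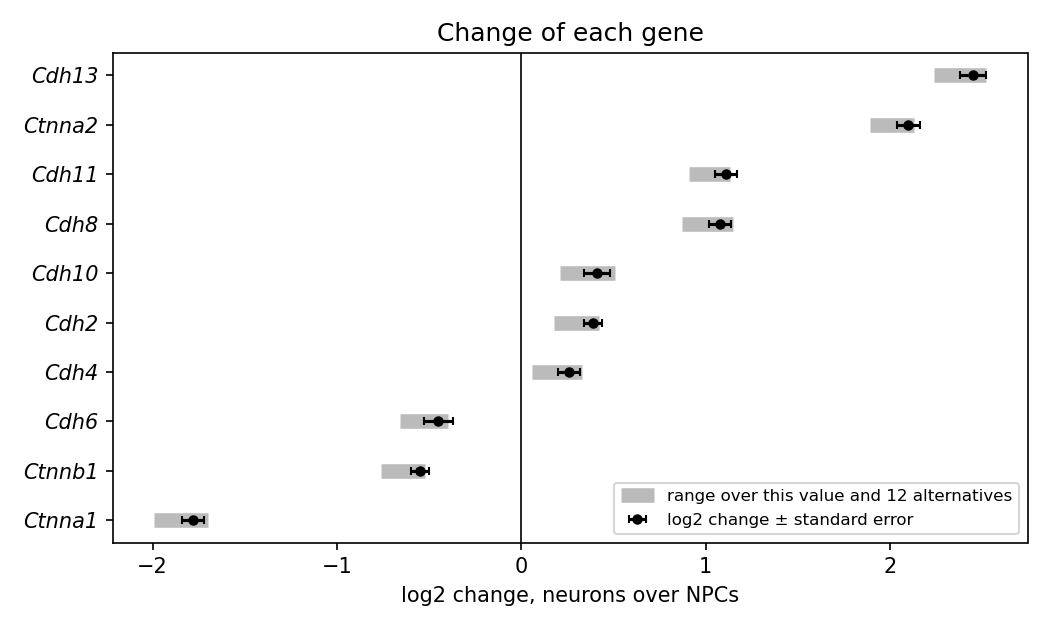
Log2 change of each gene, neurons over NPCs, as black points with bars of 1 standard error, and the range over this value and 12 alternative settings as grey bands. Every band stays on its side of 0, from -1.99 to -1.70 for Ctnna1 to 2.24 to 2.52 for Cdh13, and the band of Cdh4 reaches 0.06.

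The makeup of the cadherins shifted with Cdh13. Per kb of exon, Cdh2 was 72.7% and 73.4% of the summed level of the 7 cadherins in NPCs and 60.4% and 61.8% in neurons. Cdh13 was 5.45% and 4.93% in NPCs and 18.9% and 17.2% in neurons. Cdh8 and Cdh11 each took a larger share in neurons (4.58% and 5.08%, against 3.40% and 3.68% in NPCs, means of 2 libraries), and the shares of Cdh4, Cdh6 and Cdh10 were smaller. In plain counts the share of Cdh2 was 70.7% ± 0.462 in NPCs and 61.0% ± 0.585 in neurons (SD, n = 2), a difference of -9.67 percentage points (exact permutation p = 0.333, two-sided, the smallest possible). Without Cdh13 in the sum the difference was -2.73 points. The summed level of the 6 cadherins with a tail was 154 and 159 CPM per kb in NPCs and 210 and 214 in neurons.

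**Figure D3:**
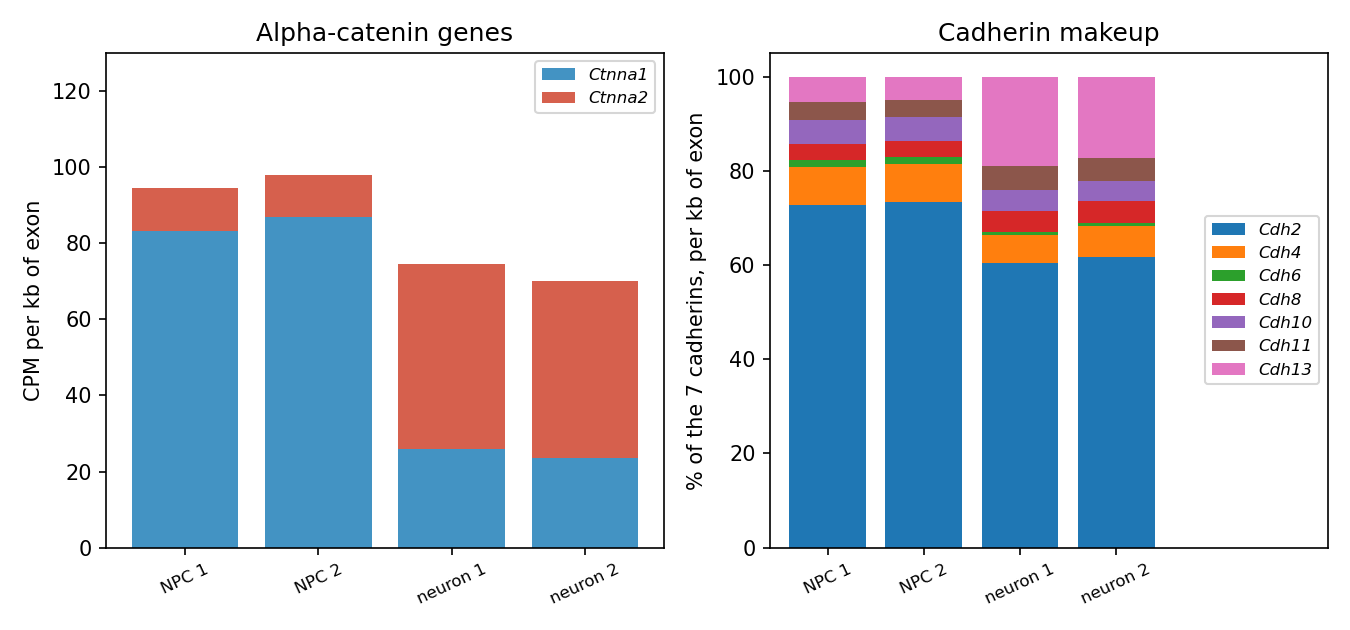
Left, stacked bars of Ctnna1 and Ctnna2 in CPM per kb of exon for each library; right, the share of each of the 7 cadherins in their summed level per kb, in percent. Ctnna2 is the smaller part in NPCs (11.1 CPM per kb) and the larger in neurons (47.5), and Cdh13 widens from 5.19% to 18.1% (group means).

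Ordered by level per kb, Ctnnb1 (290 CPM per kb), Cdh2 (121) and Ctnna1 (85.1) led in NPCs, followed by Cdh4 (13.3) and Ctnna2 (11.1). Cdh13 (8.56) and Cdh10 (8.40) overlapped, and Cdh11 (6.08), Cdh8 (5.61) and Cdh6 followed. In neurons Ctnnb1 (198) and Cdh2 (158) led again. Ctnna2 (47.5) and Cdh13 (46.7) overlapped, and Ctnna1 (24.7), Cdh4 (16.0) and Cdh11 (13.2) came next. Cdh8 (11.9) and Cdh10 (11.2) overlapped ahead of Cdh6. With the longest transcript as the length, Cdh8 moved up past Cdh11 in both groups, past Cdh4 in neurons (18.8 against 17.0), and into the overlapping range of Cdh10 and Cdh13 in NPCs (8.87). Ctnna2 then stood above Cdh4 in NPCs (16.6 against 14.2) and clear of Cdh13 in neurons (71.2 against 46.7).

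The other classical cadherins were listed apart. Of 12, 10 were tested, 4 rose in neurons and 5 fell, with a median log2 change of -0.03. Cdh12, a type II cadherin, was at 2.64 and 3.15 CPM in NPCs and at 24.5 and 30.4 CPM in neurons (log2 change 3.24 ± 0.13, edgeR adjusted p = 6.8e-13). Cdh18 rose from 0.122 and 0.117 to 0.635 and 0.465 CPM. Cdh5 (VE-cadherin), the cadherin of blood vessel endothelium, was at 9.15 and 9.70 CPM in NPCs and at 0.328 and 0.349 CPM in neurons, as the other endothelial markers were. Cdh19 had 74 counts in NPCs and 2 in neurons, a ratio of 31.7 with a 95% interval of 8.47 to 267 (exact, counting error only). Both neuron counts were in neuron replicate 2, and the fitted log2 change moved from -4.82 to -3.92 without neuron replicate 1 and to -8.11 without neuron replicate 2. Cdh1 (E-cadherin), with 6, 5, 2 and 0 counts, and Cdh3 (P-cadherin), at 0 in all 4 libraries, were too low to test. With a filter of 5 CPM, 2 of the list were called in place of 9.

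Among the junction partners, 6 of 15 tested genes rose in neurons and 8 fell, with a median of -0.24. Ctnnd2 (delta-catenin), the neural relative of p120-catenin that binds cadherin tails, rose from 78.4 and 84.9 to 170 and 178 CPM (log2 change 1.09 ± 0.06, edgeR adjusted p = 3.1e-11). Ctnnd1 (p120-catenin), which keeps cadherins at the cell surface and was picked out after its value was seen, was at 92.7 and 94.6 CPM in NPCs and at 87.8 and 94.5 CPM in neurons, which missed the threshold (-0.04 ± 0.06, edgeR adjusted p = 0.564). The groups overlapped for Ctnnd1. Lmo7, which links nectin and cadherin junctions, had a log2 change of 0.91 ± 0.07, and the nectin-binding Afdn (afadin, listed as Mllt4), the most abundant of the list, one of 0.36 ± 0.05. The LIM protein gene Ajuba (listed as Jub), whose product binds alpha-catenin, was at 31.4 and 34.1 CPM in NPCs and at 3.46 and 2.50 CPM in neurons, and Plekha7, which binds p120-catenin, had a log2 change of -2.51 ± 0.17. Vcl (vinculin), which binds stretched alpha-catenin, was picked out after its value was seen, with a log2 change of -1.75 ± 0.07. Ctnna3, a further alpha-catenin gene, had at most 9 counts in a library and was not tested.

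Genes that process, traffic or control cadherins formed a further list. Of 24, 12 rose in neurons, 4 fell and 8 missed the threshold, with a median of 0.09. Rab11a, a GTPase of recycling endosomes, rose from 236 and 247 to 394 and 371 CPM, and the kinase gene Fyn from 273 CPM in both NPC libraries to 378 and 395 CPM. Numb, an adaptor for endocytosis, fell from 13.2 and 12.3 to 5.98 and 7.81 CPM, and Rhoa, a GTPase that controls actin, had a log2 change of -0.62 ± 0.06. Cdc42, the most abundant, had a log2 change of 0.18 ± 0.05 (edgeR adjusted p = 0.00633) that turned to -0.03 with library size only. Its call was also lost with upper-quartile factors (edgeR adjusted p = 0.185), without NPC replicate 1 (0.0974) and without NPC replicate 2 (0.106). Other scaling turned the balance of this list, since 4 rose and 11 fell when only library size was used. The share of its called genes that were higher in neurons went from 75% to 26.7%. Among all genes called, that share went from 49.2% to 33.5%. Without NPC replicate 1 the list had 10 calls in place of 16, and without NPC replicate 2 it had 11.

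Regulators and nuclear partners of beta-catenin were listed apart. The destruction complex marks beta-catenin for degradation. Of its 12 listed genes, 8 rose in neurons and 1 fell, with a median of 0.32 (6 and 3 with library size only). Among all genes called, 49.2% were higher in neurons, and 33.5% with library size only. The scaffold gene Apc rose from 226 and 234 to 522 and 541 CPM (log2 change 1.21 ± 0.05, edgeR adjusted p = 3.4e-12). Its relative Apc2 had one of 0.86 ± 0.06, and the scaffold gene Axin1, higher in NPCs, one of -0.32 ± 0.08. The kinase gene Csnk1a1 was at 380 and 377 CPM in NPCs and at 445 and 411 CPM in neurons (0.18 ± 0.06), a change that became -0.03 under library size only. Csnk1a1 also lost its call with upper-quartile factors (edgeR adjusted p = 0.225), without NPC replicate 1 (0.0919) and without NPC replicate 2 (0.118). Of 9 nuclear partners, 3 rose in neurons and 4 fell, with a median of -0.01. The 4 that fell were the DNA-binding TCF and LEF genes of the list. Tcf7l1 went from 19.1 and 20.3 CPM to 1.88 CPM in both neuron libraries (log2 change -3.39 ± 0.12, edgeR adjusted p = 1.8e-13), and Tcf7l2 had one of -1.86 ± 0.13. Bcl9l, a coactivator, and Ctnnbip1, an inhibitor that blocks TCF binding, had log2 changes of 0.56 ± 0.09 and 0.36 ± 0.06. The members of both lists moved in libraries in which endothelial markers had a median log2 change of -4.84, and the part of other cells was not tested.

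Repressors known to act on cadherin genes also went both ways. Of 8 tested, 3 rose in neurons and 4 fell, with a median of -0.16. Zeb2, a zinc finger repressor, rose from 197 and 215 to 624 and 656 CPM (log2 change 1.63 ± 0.06, edgeR adjusted p = 2.5e-13), and Scrt1, of the Scratch family, from 1.55 and 1.91 to 4.55 and 6.41 CPM. Zeb1, picked out after its value was seen, had a log2 change of -1.60 ± 0.06. Within a library there were 2.04 and 2.09 counts of Zeb2 for each of Zeb1 in NPCs, and 18.8 and 20.1 in neurons. Snai2 had 99 counts in NPCs and 4 in neurons and Twist1 had 42 and 3, with NPC over neuron ratios of 21.2 (95% interval 8.03 to 79.4) and 12 (3.83 to 60.5), counting error only. Meningeal fibroblast markers, a list that also holds Twist1, were higher in NPCs for 6 of 7 genes, with sums of 42.1 to 42.8 CPM in NPCs and 3.39 to 3.87 CPM in neurons. With a filter of 5 CPM, 4 repressor genes were called in place of 7.

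**Figure D4:**
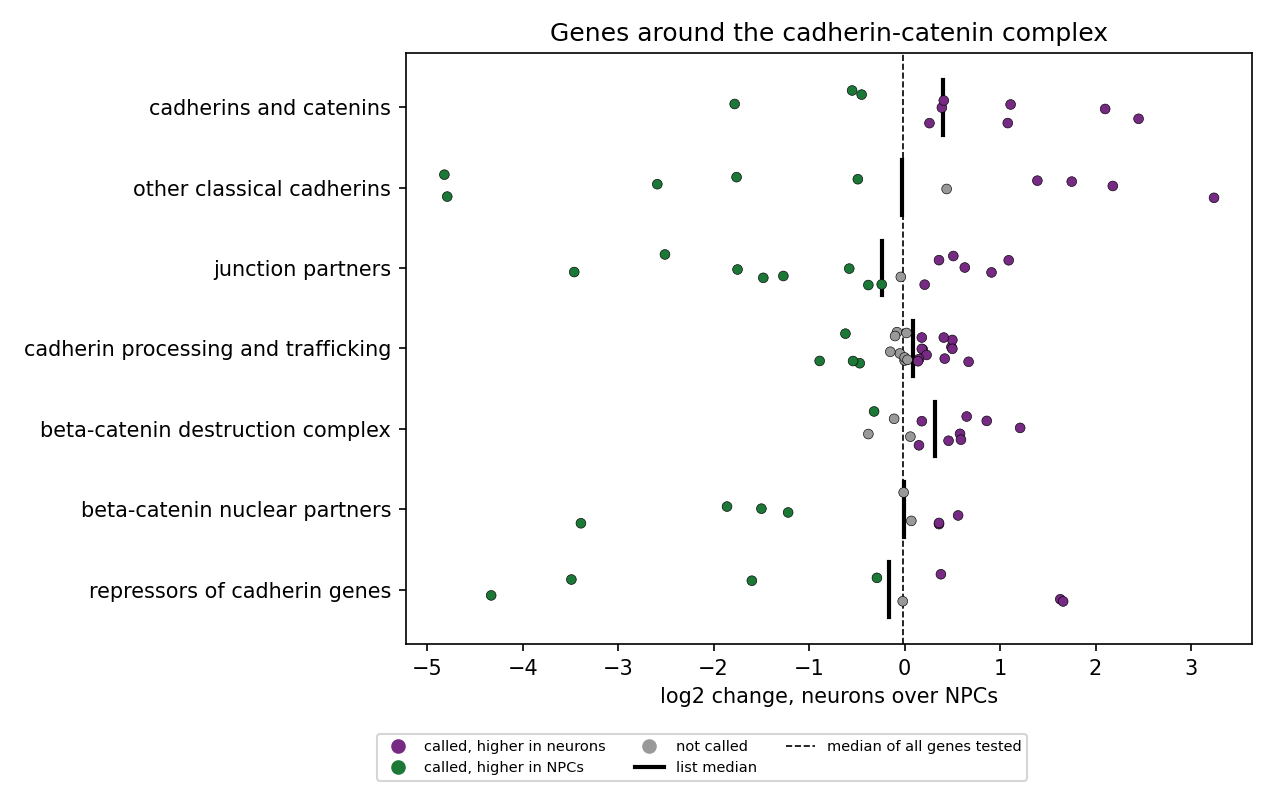
Log2 change, neurons over NPCs, of every tested gene of the members and of 6 lists around the complex, 1 point per gene, coloured by call (edgeR adjusted p under 0.05); vertical position within a list is random. Thick bars are list medians, from -0.24 for junction partners to 0.40 for the cadherins and catenins, and the dashed line is the median of all genes tested (-0.02).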

How the data were processed

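The authors deposited estimated counts per gene for each library in 1 table, without scaling between libraries. All 88416 values below 10000 were multiples of 1/101 within 0.01 base. The submitters' processing notes name TopHat 1.2.0, CASAVA 1.9, SAMtools 0.1.18 and the build mm9 without roles. Counting tool, annotation and strand use: not given in the sources used here. Libraries were grouped by their titles.

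Counts were rounded, filtered with filterByExpr (15292 genes kept) and scaled by TMM (factors 1.08, 1.07, 0.928 and 0.933). The test of neurons against NPCs was that of edgeR 4.0.16 (quasi-likelihood test, unpaired, two-sided, Benjamini-Hochberg adjustment over all genes, threshold 0.05) in R 4.3.3. On simulated data the fit recovered 23 of 50 genes changed 1.25-fold and 49 of 50 changed 2-fold, with 2 false calls among 168. The simulation gave all genes the same dispersion and changed few of them, unlike the data, so it could not test the scaling. Standard errors were taken from the log2 change and its F value (change over root F). Duplicates differed by more than sampling noise (chi-square per gene of 4.44 and 13.4) and were kept apart.

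Levels per kb use the union of exons of GENCODE M21, whose build differs from mm9. In that annotation no other gene that the table lists under its GENCODE symbol shares exon bases with a member. Genes listed under older symbols were not covered by this check. Older symbols (7 of 93 list entries) were matched through RefSeq synonyms. The members and gene lists were chosen with earlier results of these data known. All 10 members are named. Of each other list, up to 2 called genes at each end of the log2 changes and the most abundant gene are named. Others are said to be picked out or named as untested. Alternatives covered scaling, filters, DESeq2 1.42.0, limma-voom (limma 3.58.1), a replicate block and leaving out each library. The filter of 5 CPM used library totals without TMM factors. Exact permutation tests used scipy 1.17.1.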

Additional observations from a re-analysis of the deposited data

How the results depend on the processing

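Each of the 10 genes kept its direction under the 12 alternatives, and 9 of them kept their call under all 12; Cdh4 lost its call with library size only (0.06). Counts over all genes ran from 8686 with a filter of 5 CPM to 11450 with library size only, beside 11108, and the split between higher in neurons and higher in NPCs went from 5467 and 5641 to 3840 and 7610 with library size only (4609 and 6582 with upper-quartile factors). The counts that moved by over 1.5 times were those of the members at least 2-fold apart (3 with library size only in place of 5, an alternative chosen after seeing the data), the other classical cadherins (2 with the filter of 5 CPM, which leaves fewer genes tested), the repressors (4 with the same filter) and cadherin processing and trafficking (10 to 17 over the 4 fits that leave out a library; the cause was not tested). Of the named genes, Cdc42 and Csnk1a1 reversed with library size only, both at -0.03. Of all 78 list genes tested, 12 changed sign under that scaling, 8 of them called before, and 0 were called in both directions. The difference in the Cdh2 share became -2.73 points without Cdh13, by the removal of the gene that rose most. With the longest transcript the Ctnna2 share was 16.4% in NPCs and 74.2% in neurons. Deviations of same-numbered libraries correlated at 0.0186. With 1 pair of duplicates per group this cannot show whether the libraries are paired, and the titles do not say. With the replicate block, 11206 genes and all 10 members were called, and the Ctnna2 to Ctnna1 difference was 3.88 (exact p = 0.5). Leaving out a library kept that difference at 3.83 to 3.93 and the Cdh2 share difference at -10.1 to -9.25. Of 26 other named genes, 299 of 307 alternatives kept direction and call, 6 lost the call (Cdc42 and Csnk1a1) and 2 reversed.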

Other observations

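Genes that lie inside the alpha-catenin genes were picked out after their values were seen. Lrrtm1, which encodes a synaptic adhesion protein, lies within Ctnna2 on the opposite strand in GENCODE M21, with 0 shared exon bases. It was at 18.7 and 19.1 CPM in NPCs and at 75.5 and 78.7 CPM in neurons (log2 change 2.03 ± 0.07, edgeR adjusted p = 5.7e-14), in the direction of Ctnna2. Its paralog Lrrtm2 lies within Ctnna1 on the opposite strand and also shares 0 exon bases. Lrrtm2 was at 29.6 and 30.0 CPM in NPCs and at 48.9 and 54.7 CPM in neurons (log2 change 0.80 ± 0.07, edgeR adjusted p = 2.2e-08), against the direction of Ctnna1. The gene 6330415B21Rik lies within Ctnna2 on the same strand, with 0 shared exon bases, and was at 14.5 and 15.9 CPM in NPCs and at 40.9 and 35.6 CPM in neurons (log2 change 1.33 ± 0.08, edgeR adjusted p = 3.4e-10). The use of strand in the counting is not given in the sources used here.

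The cadherin genes on chromosomes 15 and 8 were likewise picked out after their values were seen, and those on chromosome 15 did not all move one way. Cdh6 was higher in NPCs, while Cdh9, Cdh10, Cdh12 and Cdh18 on the same chromosome were higher in neurons. Cdh9 had a log2 change of 1.75 ± 0.36, from 0.452 and 0.235 to 1.02 and 1.28 CPM. On chromosome 8, Cdh8, Cdh11, Cdh13 and the low Cdh15 were higher in neurons and Cdh5 in NPCs. Cdh15 had 10 and 4 counts in NPCs and 12 and 20 in neurons, near the threshold (1.39 ± 0.58, edgeR adjusted p = 0.0397). Of the other classical cadherins, 3 in place of 4 were called higher in neurons with library size only, and likewise 3 with upper-quartile factors.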
